A study of Mus musculus with 8 samples.

Results

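The genes described are 9 subunits of voltage-gated calcium channels among 15519 genes in the table: the pore-forming alpha-1 genes Cacna1a, Cacna1b, Cacna1c, Cacna1d and Cacna1e, the alpha2delta genes Cacna2d1 and Cacna2d3, and the beta genes Cacnb2 and Cacnb4. They were taken by symbol, not for a measured value, though earlier results of these data were known. All 9 had reads in each of the 8 libraries, whereas 60.8% of the 15519 genes had 0 reads in at least 1 library. The libraries hold nuclear RNA of wild-type (WT) mouse hippocampal pyramidal cells. Place cells are neurons active at a given spot in space; they were found by in vivo imaging, and their nuclei were tagged with light before collection. The Day 0 class had 4 libraries and the Recurring class 4, and the labels leave both undefined. Every library had the same genotype and no drug or transgene is named. No age or sex is given. The titles number the mice differently, the only sign that animals were separate, so p-values reflect just the variation among these 8 libraries.

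A voltage-gated calcium channel opens when the membrane depolarizes and lets calcium into the neuron. The alpha-1 subunit forms the pore and sets the channel type, while alpha2delta and beta subunits carry the pore to the surface and tune its opening. In hippocampal pyramidal neurons, P/Q-type and N-type channels serve transmitter release, L-type channels couple activity to transcription, and R-type channels admit calcium into dendrites and spines.

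Depth was 8374986 to 14887866 reads per library, with 10718 to 13807 genes detected. Over the 12 pairs of libraries of the same group, Pearson's r across tested genes was 0.407 to 0.568, a description across genes, which are not independent replicates. The labelled cell type was checked against 10 CA1 pyramidal markers, all in the table. Their summed normalized count, that is reads divided by a library size factor, was 30601 to 43679 in Day 0 and 28893 to 49065 in Recurring cells. Slc17a7, the glutamate transporter of these neurons, was at 1252 to 4306 normalized counts over the 8 libraries. Markers of other cells were uneven. Of 9 listed astrocyte markers, 8 were in the table, and their sum was 480 to 2343 in Day 0 and 1369 to 16919 in Recurring cells, highest in Recurring replicate 1. Of 10 listed interneuron markers, 9 were in the table, and their sum was 733 to 3216 and 577 to 10563, highest in Recurring replicate 2. The defining interneuron genes Gad1 and Gad2 were at 0 in 2 libraries each. For 9 oligodendrocyte markers, all in the table, the sum was 1559 to 11874 in Day 0 and 1455 to 6782 in Recurring cells. It was highest in Day 0 replicate 4. Microglia markers, 5 of 9 in the table, summed to 213 to 707 and 507 to 6056, highest in Recurring replicate 4.

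None of the 9 channel genes differed between Recurring and Day 0 cells at the threshold, an adjusted p of 0.05 by limma over all 11078 genes tested. Among all genes tested, 0 passed it (0%), with adjusted p from 0.981 upward, and 401 (3.62%) reached an unadjusted p under 0.05. None of the 9 channel genes did, and their smallest p was 0.194, for Cacna1a. The mean log2 level was higher in Recurring cells for Cacna1a, Cacna1b and Cacnb4 and lower for the other 6, where 50.1% of all tested genes had a higher and 49.9% a lower mean. The median difference was -0.09 (log2) over the 9 genes and 0.0050 over all tested genes. The groups overlapped for each of the 9, while 2.41% of all tested genes did not overlap. All differences are Recurring minus Day 0 in log2 of the normalized count plus 1. In these bulk libraries, fewer cells carrying an RNA and less of it per cell cannot be told apart.

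**Figure D1:**
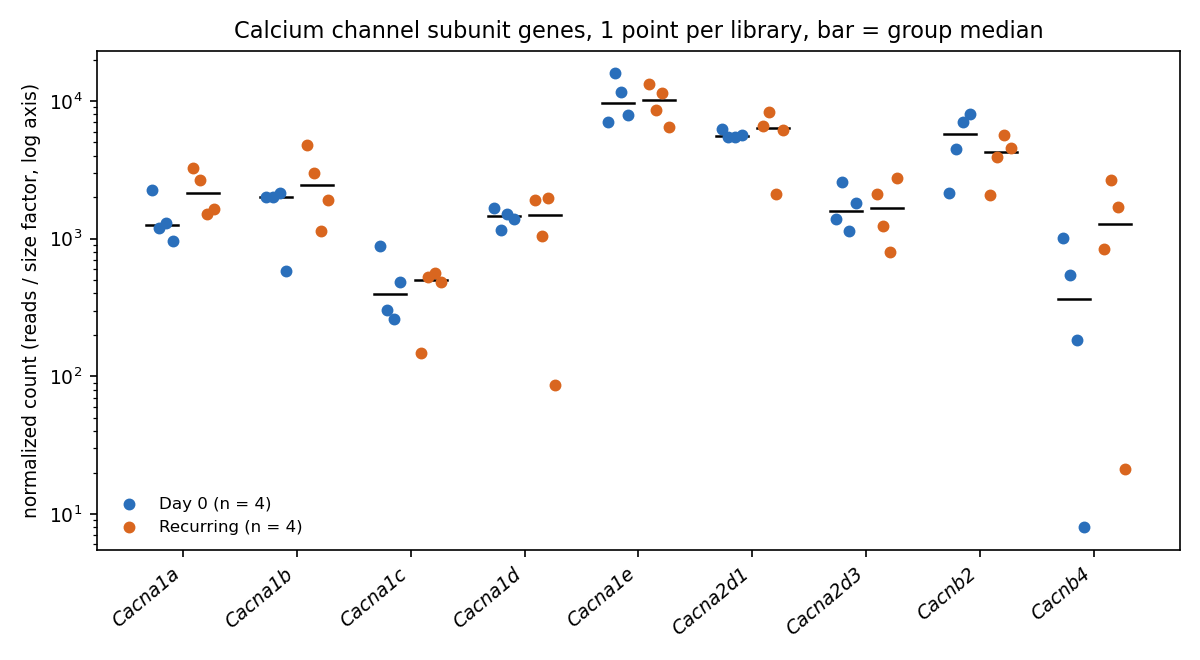
Normalized counts (log axis) of the 9 channel genes in the 4 Day 0 and 4 Recurring libraries, 1 point per library, with bars at group medians. The groups overlap for every gene, and Cacnb4 spreads the most, from 8.02 to 2650 normalized counts.

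The promoters of Cacna1b and Cacnb2 are shown because these channel genes had the highest and the lowest correlation with Cacna1a across libraries, as described further on. Cacnb2 also has a pair of listed starts of unlike composition. This is not particular to it: Cacna1d, not shown, has starts with 2 and 50 CpG pairs. Each line gives the 250 bases before a start in RefSeq on GRCm38.p6, an earlier build than the authors' GRCm39, read 5′ to 3′ on the gene's strand. Capitals mark matches to the GC box GGGCGG on either strand.
Cacna1b, chr2:24763153-24763402, minus strand: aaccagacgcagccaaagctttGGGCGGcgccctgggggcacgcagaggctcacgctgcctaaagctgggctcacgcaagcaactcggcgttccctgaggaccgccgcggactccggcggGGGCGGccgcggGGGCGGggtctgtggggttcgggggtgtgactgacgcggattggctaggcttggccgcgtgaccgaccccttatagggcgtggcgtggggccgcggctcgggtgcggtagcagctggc
Cacnb2, first start, chr2:14604056-14604305, plus strand: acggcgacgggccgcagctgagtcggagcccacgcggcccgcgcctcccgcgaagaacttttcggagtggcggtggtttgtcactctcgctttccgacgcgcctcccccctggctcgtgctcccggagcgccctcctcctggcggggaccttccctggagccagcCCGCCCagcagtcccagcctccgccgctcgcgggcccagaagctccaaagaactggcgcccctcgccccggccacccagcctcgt
Cacnb2, second start, chr2:14823842-14824091, plus strand: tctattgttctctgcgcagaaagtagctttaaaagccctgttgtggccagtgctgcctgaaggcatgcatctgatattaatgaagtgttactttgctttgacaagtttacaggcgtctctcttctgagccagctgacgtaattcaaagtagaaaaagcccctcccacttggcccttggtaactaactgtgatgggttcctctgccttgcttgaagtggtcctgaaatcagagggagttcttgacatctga
The Cacna1b window held 29 CpG pairs at a GC content of 72% and 3 GC boxes. The first Cacnb2 window held 30 CpG pairs at a GC content of 73.2% and 1 GC box, and the second held 3 CpG pairs at 46.0% and no GC box. Over 32851 RefSeq windows of the same length, 32.7% held GGGCGG and the mean was 9.86 CpG pairs. None of the 3 windows held TATAAA or TGACGTCA, which stood in 12.4% and 1.55% of all windows, both strands searched. No matches overlapped. A match is a description of letters, and which start these nuclei used was not measured.

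Cacna1e, the pore of R-type channels, was the most abundant alpha-1 RNA in 8 of 8 libraries, by reads and by reads per kb of exon. Its normalized counts were 7005, 15855, 11560 and 7925 in Day 0 replicates 1 to 4 and 13300, 8665, 11520 and 6440 in Recurring replicates 1 to 4. The groups overlapped over most of their ranges, and the highest library belonged to Day 0 and the lowest to Recurring. The difference was -0.06 (SE 0.32, 95% interval -0.73 to 0.60), with an adjusted p of 0.998 by limma. Cacna1e and Cacna2d1 were the only 2 of the 9 whose intervals lay within 1 log2 unit of 0, as did 1.98% of all tested genes. With voom the difference was 0.0043.

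Cacna1a, the pore of P/Q-type channels, had 2268.5, 1202, 1301 and 966 normalized counts in Day 0 cells. In Recurring cells it had 3250, 2656, 1498 and 1654. Day 0 replicate 1 stood above Recurring replicates 3 and 4, and the other 3 Day 0 libraries lay below all Recurring ones. Mean levels were 10.41 ± 0.52 and 11.07 ± 0.54 (log2, SD, n = 4 each), a difference of 0.66 (SE 0.49, 95% interval -0.37 to 1.69) or 1.58-fold. Limma gave an adjusted p of 0.981, and a 2-sided exact permutation test over the 70 assignments of the libraries gave p = 0.143, where the smallest possible is 0.0286.

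Cacna1b, the pore of N-type channels, had 1999, 2020, 2144 and 586 normalized counts in Day 0 cells. In Recurring cells it had 4828, 2976.5, 1144 and 1902. Its highest 2 libraries were Recurring and its lowest was Day 0 replicate 4, yet Recurring replicates 3 and 4 lay below 3 Day 0 libraries. The difference was 0.66 (SE 0.56, 95% interval -0.53 to 1.84), with an adjusted p of 0.981 by limma. It fell to 0.21 when Day 0 replicate 4 was left out and to 0.30 when Recurring replicate 1 was. Leaving out Recurring replicate 3 gave 1.003, and library weights gave 0.07. Recurring replicates 1 and 2, the highest and the next in both Cacna1a and Cacna1b, also had the highest astrocyte marker sums, 16919 and 8549, against at most 2343 in the other 6 libraries. They also had the highest sums of dentate granule markers, 4255 and 5334, against at most 3204 in the other 6. Their CA3 marker sums were 2730 and 1535.5. Day 0 replicate 1, the next in Cacna1a, had a CA3 sum of 1909 and the lowest astrocyte sum, 480. Of the 8 astrocyte markers, 7 had a higher mean log2 level in Recurring cells, as did 3 of 4 dentate granule and 4 of 4 CA3 markers in the table. In Recurring replicate 1 Slc1a3 was at 8162 and Gfap at 34.1 normalized counts. Day 0 replicate 4, the lowest in Cacna1b, had the highest oligodendrocyte marker sum, 11874, and the lowest CA3 marker sum, 31.1. The part of astrocyte, oligodendrocyte, dentate granule or CA3 RNA in the channel genes' levels was not tested.

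Cacna1d and Cacna1c are the pores of the neuronal L-type channels. Cacna1d had 1680, 1162, 1500 and 1397 normalized counts in Day 0 cells and 1916, 1042, 1965 and 86.2 in Recurring cells. Recurring replicate 4 stood alone at the bottom, while the other 3 Recurring libraries spanned the Day 0 values on both sides. The difference was -0.90 (SE 0.83, 95% interval -2.65 to 0.86), with an adjusted p of 0.981 by limma, and 0.15 without Recurring replicate 4.

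Cacna1c was the least abundant of the 9 per kb of exon. It had 880, 305, 261 and 483 normalized counts in Day 0 cells and 149, 524, 561 and 482 in Recurring cells. Day 0 replicate 1 was highest and Recurring replicate 1 lowest, with the other libraries mixed. The difference was -0.17 (SE 0.90, 95% interval -2.07 to 1.73), with an adjusted p of 0.998 by limma. It was 0.27 without Recurring replicate 1 and 0.16 without Day 0 replicate 1.

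Shares of the reads of the 5 alpha-1 genes within a library do not depend on its depth, and they are given as a description. Cacna1e took 66.6% ± 11.3 (SD, n = 4) of these reads in Day 0 and 60.3% ± 6.37 (n = 4) in Recurring cells. Day 0 replicate 1 had the lowest Cacna1e share, 50.6%, and Day 0 replicate 2 the highest, 77.2%. Cacna1a and Cacna1b together took 30.9%, 15.7%, 20.5% and 13.7% in Day 0 cells and 34.5%, 35.5%, 15.8% and 33.7% in Recurring cells. Thus 3 Recurring libraries stood above all Day 0 libraries, and Recurring replicate 3 stood among the low ones. The means were 20.2% ± 7.67 and 29.9% ± 9.39. Cacna1c and Cacna1d together took 13.2% ± 5.27 and 9.80% ± 4.04. Cacna1c had the smallest share in 7 of 8 libraries, and Cacna1d, at 0.82%, had it in Recurring replicate 4.

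Per kb of exon, a scale that divides reads by annotated length, Cacna1e took 49.0% of the 5 in Day 0 and 41.0% in Recurring cells. Cacna1a and Cacna1b together took 34.2% ± 9.73 and 47.2% ± 13.0 on this scale. The sum of the P/Q-type and N-type genes thus passed Cacna1e in the mean of Recurring cells and not in that of Day 0 cells. The spread in each group spans the difference, and single libraries went against the means. The sum was above Cacna1e in Day 0 replicate 1, 46.9% against 32.6%. In Recurring replicate 3 it was below, 27.8% against 51.6%. Exon lengths came from an annotation of GRCm38 and count every annotated exon of a gene. Which exons these nuclei used was not measured, so the order of genes per kb depends on the annotation.

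**Figure D2:**
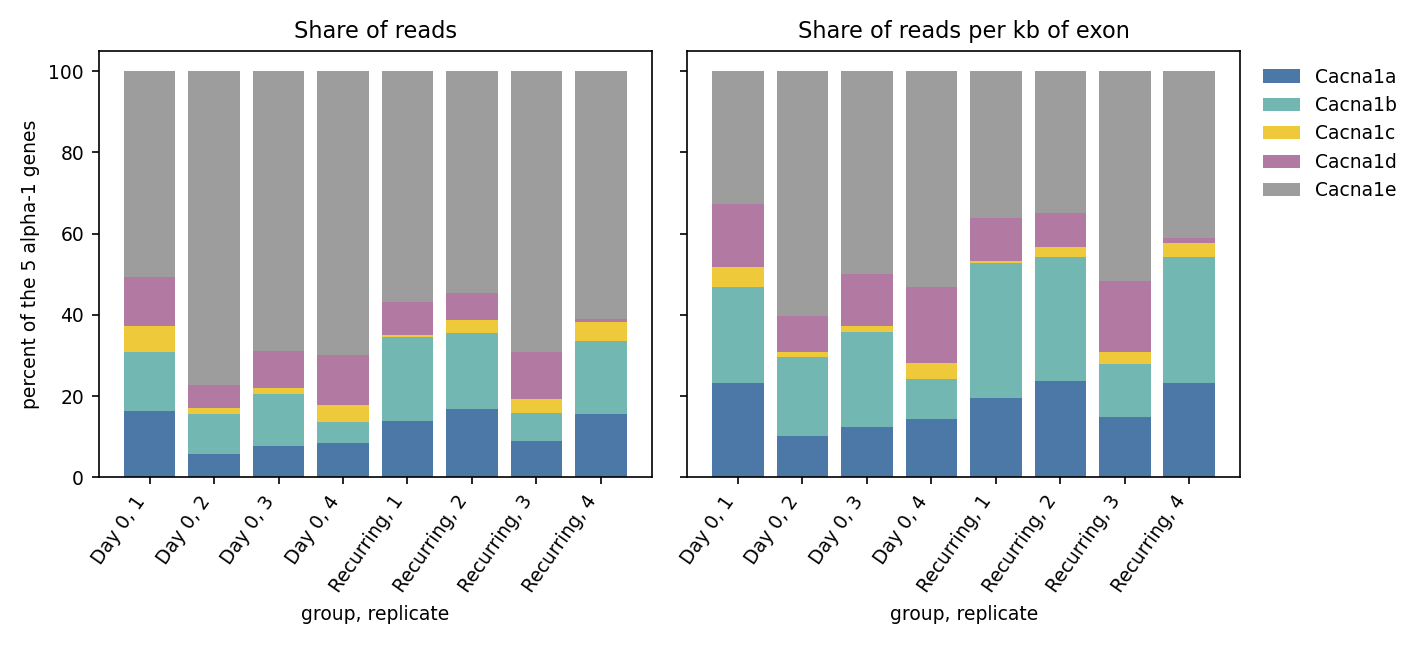
Percent of the reads of 5 alpha-1 genes taken by each gene, by reads (left) and by reads per kb of exon (right), 1 stacked bar per library. Cacna1e holds the widest band in each bar, from 50.6% to 77.2% of reads and from 32.6% to 60.2% per kb.

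The alpha2delta subunits are extracellular proteins that raise the number of channels at the surface, and Cacna2d1 also encodes the binding site of gabapentin. Cacna2d1 had 6226, 5459, 5517 and 5652 normalized counts in Day 0 cells and 6574, 8362, 2125 and 6119 in Recurring cells. The Day 0 libraries lay close together and inside the Recurring range, whose top is replicate 2 and whose bottom is replicate 3. Its SD was 0.09 (log2, n = 4) in Day 0 and 0.88 in Recurring cells. The difference was -0.14 (SE 0.39, 95% interval -0.96 to 0.67), with an adjusted p of 0.998 by limma, while mean normalized counts per kb went the other way, 460 in Day 0 and 467 in Recurring cells. Without Recurring replicate 3 it was 0.28.

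Cacna2d3 had 1378.5, 2591, 1136 and 1801 normalized counts in Day 0 cells and 2109.5, 1225.5, 793 and 2749 in Recurring cells. Recurring replicates 4 and 3 were the highest and the lowest of the 8, so the Recurring values enclosed the Day 0 ones. The difference was -0.09 (SE 0.53, 95% interval -1.21 to 1.02), with an adjusted p of 0.998 by limma. It was 0.13 without Day 0 replicate 2 and 0.22 without Recurring replicate 3. Cacna2d1 took 77.1% ± 6.94 of the reads of this pair in Day 0 and 76.2% ± 7.85 in Recurring cells, and it was above Cacna2d3 in every library.

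Beta subunits bind the pore inside the cell and keep it from degradation. Cacnb2 had 2159, 4493, 7059 and 7985 normalized counts in Day 0 cells and 2058, 3924, 5656 and 4536 in Recurring cells. Replicate 1 was lowest in each group, the highest 2 libraries were Day 0, and the groups overlapped through most of their range. The difference was -0.35 (SE 0.44, 95% interval -1.28 to 0.58), with an adjusted p of 0.998 by limma. It ranged from -0.75 without Day 0 replicate 1 to -0.07 without Recurring replicate 1, and was -0.02 with library weights.

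Cacnb4, whose loss causes seizures and ataxia in the lethargic mouse, had 1010, 547, 184 and 8.02 normalized counts in Day 0 cells. In Recurring cells it had 841, 2650, 1695 and 21.3. Each group held 1 library near the bottom, with 8 reads in Day 0 replicate 4 and 21 in Recurring replicate 4. The highest level was 330.5 times the lowest, against 2.46 to 22.8 times for the other 8 genes. The difference, 1.63, was the largest of the 9 and also the least certain (SE 1.61, 95% interval -1.76 to 5.02, adjusted p 0.981 by limma). It ranged from 0.21 without Day 0 replicate 4 to 3.16 without Recurring replicate 4.

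Cacnb2 took most of the reads of the beta pair in every library, with a mean of 88.7% ± 14.4 (SD, n = 4) for Day 0 against 76.8% ± 16.8 for Recurring libraries. Its share was lowest in Recurring replicate 2, 59.7%, and highest in Day 0 replicate 4, 99.9%. Per kb of exon the pair was level in Recurring replicate 2, where Cacnb2 took 50.1%.

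**Figure D3:**
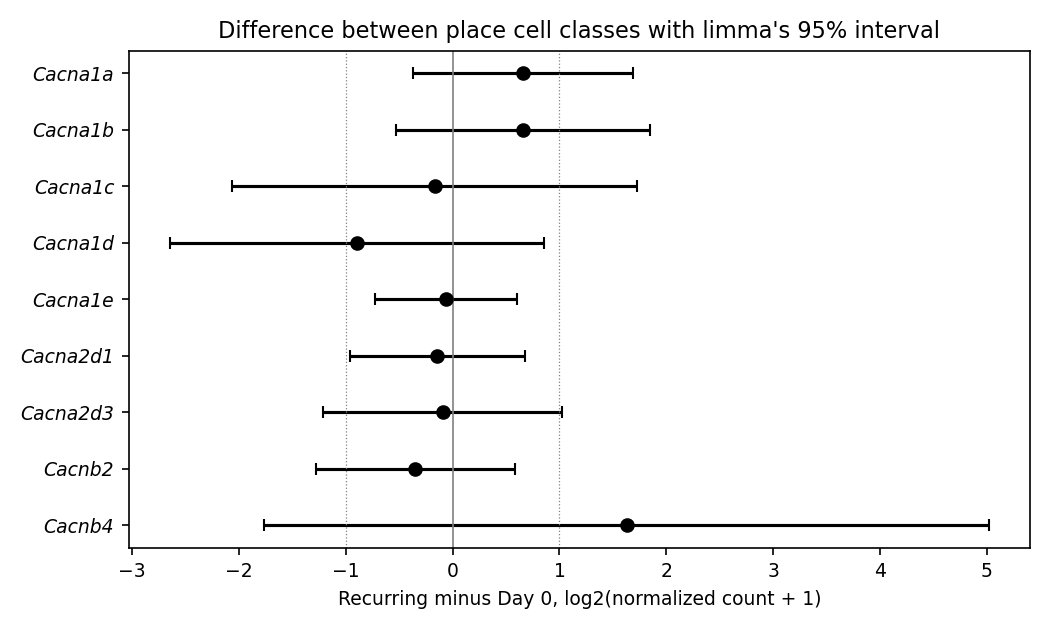
Log2 difference, Recurring minus Day 0, of each of the 9 channel genes with its 95% interval from limma. Each interval includes 0, from the narrow one of Cacna1e (-0.73 to 0.60) to the wide one of Cacnb4 (-1.76 to 5.02).

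Per kb of exon the order of mean log2 levels over the 8 libraries was Cacna2d1, Cacna1e, Cacnb2, Cacna1b, Cacna2d3, Cacna1a, Cacna1d, Cacnb4 and Cacna1c. Cacna2d1 was at 460 ± 28.3 (SD, n = 4) normalized counts per kb for Day 0 and 467 ± 212 for Recurring libraries. Cacna1c, at the bottom, was at 22.8 ± 13.3 and 20.2 ± 8.95. Neighbours in this order were not separated: each gene stood above the next in 4 to 6 of 8 libraries. Of the 9 genes, 6 were among the 1108 tested genes with the highest mean level. The pooled SD within groups was below the median of all tested genes, 2.36 (log2), in 8 of 9. It was above the median of those 1108 genes, 0.618, in 7 of 9. These 7 include Cacna1c, Cacna1d and Cacnb4, which are less abundant than the 1108 genes. They also include Cacna2d1, just above at 0.623.

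Across the 8 libraries the channel genes did not move as a block. Of 36 pairs, 15 had a Pearson r of log2 levels above 0 and 21 below it, with a median of -0.05. These values are descriptions over 8 points that share depth and library, and the pairs named were picked as the extremes. Cacna1a and Cacna1b had the highest r, 0.82, and 0.79 after group means were removed. Cacna1a and Cacnb2 had the lowest, -0.86, and -0.90 after group means were removed. Without the 2 libraries farthest from the median of Cacna1a, which were Recurring replicates 1 and 2, these became 0.58 and -0.87. For Cacna1b and Cacnb2 r was -0.72, and -0.25 without the 2 libraries farthest from the median of Cacna1b. For Cacna1c and Cacna1e it was -0.70, and -0.66 without 2 libraries chosen the same way.

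**Figure D4:**
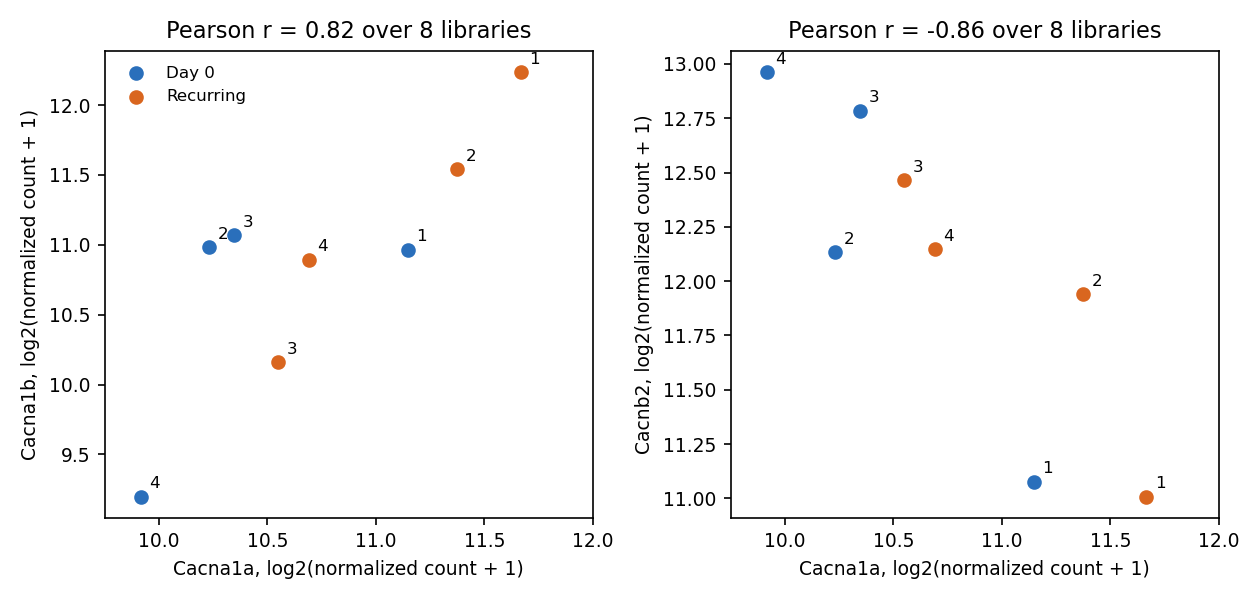
Log2 normalized counts of pairs of channel genes, 1 point per library, coloured by group and numbered by replicate. Cacna1a rises with Cacna1b (r = 0.82) and falls with Cacnb2 (r = -0.86) over the 8 libraries.

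For each channel gene, the genes most like it over the 8 libraries were sought among 5641 genes with reads in every library. Cacna1a was closest to Ankfy1 (r = 0.96), Stxbp5 (0.95) and Ptprf (0.94). Cacna1b was closest to Stim2 (0.97), Elovl5 (0.97) and Dock3 (0.95). Cacna1c was closest to Cul1 (0.94), Frmpd3 (0.93) and Gt(ROSA)26Sor (0.92), and Cacna1d to Ttc7b (0.99), Sipa1l1 (0.98) and Trim11 (0.98). None of the first choices was another channel gene. Cacna1e was closest to Tollip (0.97), Mtmr14 (0.90) and Rmdn3 (0.89). The alpha2delta genes were closest to Ascc2 (0.96), Ero1a (0.93) and Taok1 (0.92) for Cacna2d1 and to Pfdn2 (0.95), Ptprs (0.93) and Rps28 (0.88) for Cacna2d3. Cacnb2 was closest to Morn1 (0.98), Atf6 (0.97) and Thoc1 (0.97), and Cacnb4 to Hspd1 (0.98), Efr3b (0.97) and Zkscan3 (0.96). The highest of so many correlations over 8 points is large by selection, so these are names and values only.

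Of 17 other voltage-gated calcium channel genes listed, 10 were in the table and 9 were tested. By limma 0 were called, 0 had an unadjusted p under 0.05, 5 were higher and 4 lower in Recurring cells. The genes Cacna1f, Cacna1s, Cacna2d4, Cacng1, Cacng5, Cacng6 and Cacng7 were not in the table, so their levels are not known. Cacna1g, a T-type pore that opens near resting potential, had 602, 880, 468 and 178 normalized counts in Day 0 and 1690, 83.2, 69.9 and 31.5 in Recurring cells. Recurring replicate 1 was the highest of all 8 and the other 3 Recurring libraries the lowest. Its difference was -1.77 (SE 1.33), with an adjusted p of 0.981 by limma, and it ranged from -3.00 without Recurring replicate 1 to -1.09 without Recurring replicate 4. The other T-type pores, Cacna1h and Cacna1i, differed by 0.42 (SE 1.38) and -1.01 (SE 1.49), and turned to -0.64 without Day 0 replicate 3 and to 0.06 without Recurring replicate 2, respectively. The beta genes Cacnb1 and Cacnb3 differed by -0.98 (SE 0.97) and 0.99 (SE 1.17), and Cacnb3 ranged from 0.17 without Day 0 replicate 4 to 1.58 without Day 0 replicate 2.

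Cacna2d2 was at 0 to 37.5 normalized counts in 7 libraries and at 782 in Recurring replicate 2. That library also had the highest Gad1, 4634, and Gad2, 1438 normalized counts, and the part of interneuron RNA in the value was not tested. The difference of Cacna2d2 was 0.51 (SE 2.37), -1.18 without that library and 2.02 without Recurring replicate 3. Cacng2, Cacng3 and Cacng8 encode relatives of the muscle channel's gamma subunit that act on AMPA receptors. They differed by -0.63 (SE 1.09), 0.08 (SE 0.61) and 0.48 (SE 2.12). Leaving out single libraries gave -1.46 (Day 0 replicate 3) to -0.10 (Recurring replicate 4) for Cacng2. It gave -0.25 (Day 0 replicate 3) to 0.55 (Day 0 replicate 4) for Cacng3 and -0.75 (Day 0 replicate 3) to 1.199 (Day 0 replicate 2) for Cacng8. Cacng4 was at 0 in 5 libraries and below the filter.

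**Figure D5:**
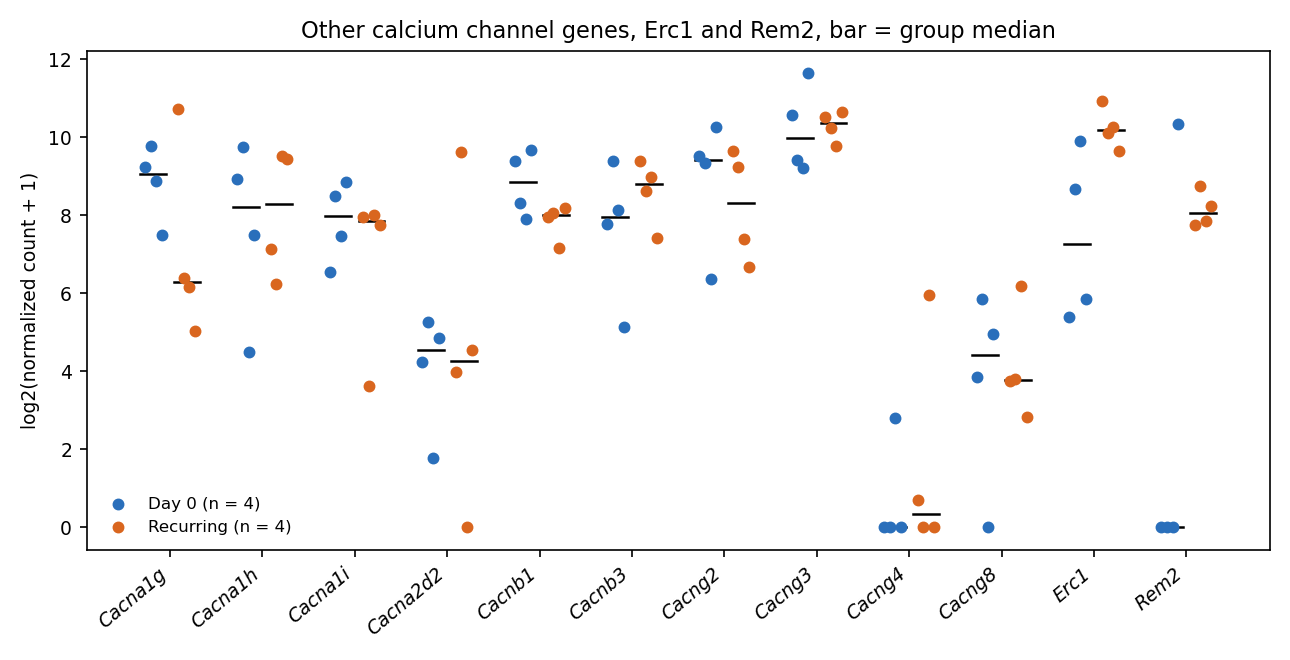
Log2 of the normalized count plus 1 of 10 other calcium channel genes and the partners Erc1 and Rem2, 1 point per library, with bars at group medians. Erc1 is at 792 to 1939 normalized counts in Recurring and 40.9 to 951 in Day 0 libraries, and 3 Day 0 libraries sit at 0 for Rem2.

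Of 25 listed partners and regulators of the channels, 22 were in the table, and all 22 were tested. By limma 0 were called and 2 had an unadjusted p under 0.05, beside 3.62% of all tested genes. There were 12 higher and 10 lower in Recurring cells, and the 3 with the smallest p in each direction are named. Erc1, an active-zone scaffold, had 40.9, 403, 951 and 56.1 normalized counts in Day 0 and 1939, 1091, 1213 and 792 in Recurring cells. Only Day 0 replicate 3 reached into the Recurring range. Its difference was 2.78 (SE 1.03, unadjusted p 0.0149, adjusted p 0.981 by limma).

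Rem2, a small GTPase that inhibits these channels by way of the beta subunit, was at 0 reads in 3 Day 0 libraries and at 1288 normalized counts in Day 0 replicate 4. Recurring libraries had 213, 425, 231 and 299. The log2 difference was 5.56 (SE 2.55, unadjusted p 0.0434, adjusted p 0.981 by limma), whereas the mean normalized count was higher in Day 0, 322 against 292. Syt1, the calcium sensor of transmitter release, was at 8054 to 12756 in Day 0 and 11222 to 16431 in Recurring cells, a difference of 0.49 (SE 0.25, adjusted p 0.981 by limma). Only Day 0 replicate 1 and Recurring replicate 1 overlapped.

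The lower partners were Akap5, an anchor of L-type channels and their kinases, Calm3, a calmodulin gene, and Stac2, an adaptor of L-type channels. Akap5 was at 389 to 1029 normalized counts in Day 0 and at 1.86, 1280, 912 and 101 in Recurring cells, a difference of -2.44 (SE 1.54), and -0.60 without Recurring replicate 1. Calm3 differed by -1.03 (SE 0.90), and 0.04 without Recurring replicate 3. Stac2 differed by -2.41 (SE 2.56) on the log2 scale, while its mean normalized count was 293 in Day 0 and 523 in Recurring cells. Its difference was -0.75 without Recurring replicate 1 and -4.25 without Recurring replicate 4.

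Some reads may belong to neighbours. In the GRCm38 annotation, exons on the opposite strand shared 1433 bases with Cacnb4 (A430018G15Rik), 589 with Cacna1d (Chdh), 435 with Cacna1a (Gm16183), and 618, 239 and 111 with Cacnb2 (Gm10849, Gm13269 and Gm10848). Whether reads were counted by strand is not given in the sources used here, so such reads cannot be told apart. Over the 8 libraries Chdh was at 0 to 44.6 normalized counts, Gm16183 at 47.6 to 327, Gm10848 at 0 to 385 and Gm13269 at 0 to 84.0. A430018G15Rik and Gm10849, which share the most bases with Cacnb4 and Cacnb2, were not in the table, so their levels are not known.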

How the data were processed

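RNA-seq was made from nuclear RNA in 8 libraries with a SMART-Seq mRNA LP kit, per the labels' protocols. STAR, HTSeq and GRCm39 are named in the submitters' processing notes, without versions. The authors deposited a scaled signal per gene and library, with no log transform. Each gene's deposited values were whole reads times a constant of that gene (1.15 to 1.58 for the 9 channel genes), with no correction for depth. Dividing it out gave whole reads, within 0.1 read, for 95910 of 95910 values above 0. The step required this, and it kept constants for their small deviation from whole reads, so the full count is not a test of the recovery. The constants were computed as trimmed-mean factors with genes in the place of libraries, with the trimming inferred from the values. The step was run on simulated data built with the same rule. That run tests the recovery of reads and cannot test the rule itself.

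Size factors by median of ratios (0.837 to 1.61) scaled the reads. Log2(normalized count + 1) was fitted in limma 3.58.1 (R 4.3.3; trend of the variance on level; Benjamini-Hochberg adjustment at 0.05), over genes with a normalized count of at least 10 in 4 or more libraries. On this scale the added 1 shrinks the differences of low genes, but libraries at 0 reads can make a difference large. For Rem2 it was 5.56, with mean normalized counts of 322 in Day 0 and 292 in Recurring cells. Single genes were also compared by 2-sided exact permutation. Shares of reads have no test.

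Groups came from the labels, and replicates were numbered in order of deposit. Channel genes and lists were chosen with earlier results of these data known. The rule named all 9 channel genes, the other channel genes, the 3 partners with the smallest p in each direction, and the 3 genes with the highest r to each channel gene, predicted genes and clones left out. Markers of 9 cell types were listed, and not all of them are given in the report. Exon lengths and overlaps came from GENCODE vM21 (GRCm38), which is not the authors' build. Alternatives were pseudocounts of 0.5 and 10, other filters, scalings and tests, and leaving out each library.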

Additional observations from a re-analysis of the deposited data

Results flagged for a closer look

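Of 18 groups of 4 libraries examined, 1 for each channel gene and group, 2 held a library far from the others. Chance flags about 1 in 20 such groups. Cacna1b was lowest in Day 0 replicate 4, at 9.20 (log2, 586 normalized counts), where the nearest Day 0 library was at 10.97, a gap of 0.946 of the group's range, above Dixon's 95% critical value. Cacna1c was lowest in Recurring replicate 1, at 7.22 (log2, 149 normalized counts), where the nearest Recurring library was at 8.92, a gap of 0.885 of the range.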

How the results depend on the processing

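No paired analysis was possible because the replicate numbers follow the order of deposit and pair no libraries. No gene was called under any alternative, except 2 by limma without a variance trend (lowest adjusted p 0.0300), neither a channel gene. Voom called 0, with 518 genes at an unadjusted p under 0.05. Of 170 values of the channel genes under alternatives, 0 passed the threshold, and the lowest adjusted p was 0.913. The difference itself could not change in 35 of them (filters, no variance trend, exact test). Of the other 135, 121 kept their direction and 14 reversed. The number higher in Recurring cells, 3, ranged from 3 to 5 when single libraries were left out.

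With the deposited values as they stand, which lack the depth correction, the median of all tested genes moved from 0.0050 to 0.09. Under that common shift Cacna1e went to 0.038, Cacna2d3 to 0.0070 and the number higher to 5, which says nothing particular to these genes. Cacna1e reversed to 0.0043 with voom. With library weights Cacna1c reversed to 0.20, Cacna1b went to 0.07, Cacnb2 to -0.02, Cacnb4 to 0.84, Cacna1e to -0.28, Cacna2d1 to -0.44 and Cacna2d3 to -0.52. Leaving out single libraries gave -0.41 to 0.27 for Cacna1c, -1.35 to 0.15 for Cacna1d, -0.25 to 0.16 for Cacna1e, -0.37 to 0.28 for Cacna2d1 and -0.37 to 0.22 for Cacna2d3. It gave 0.45 to 0.89 for Cacna1a, 0.21 to 1.003 for Cacna1b, -0.75 to -0.07 for Cacnb2 and 0.21 to 3.16 for Cacnb4. The median of all genes moved to -0.15 without Day 0 replicate 4 and to 0.13 without Recurring replicate 1. Cacnb4 was not tested when 10 normalized counts were required in all 8 libraries. Counting per kb moved the alpha-1 shares in Day 0 and Recurring cells to 15.03% and 20.3% for Cacna1a, 19.1% and 26.9% for Cacna1b and 49.0% and 41.0% for Cacna1e, and to 14.0% in Day 0 cells for Cacna1d. Those changes follow from the division by length.

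With 4 libraries a group, the standard error had a median of 1.78 (log2) over all tested genes; for the 1108 most abundant it was 0.47. A difference had to be well past its standard error to be called: the smallest unadjusted p of all tested genes, 0.00060, had an adjusted p of 0.981.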
